A study of Mus musculus with 6 samples.

Results

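Imprinted genes are read from one parental copy, and many of them set how fast a tissue grows. The 10 imprinted growth-control genes followed here were H19, Igf2, Igf2r, Cdkn1c, Peg3, Plagl1, Meg3, Dlk1, Grb10 and Mest, a list set by gene name. They are 10 of the 55291 gene symbols listed, and 9 of them were among the 17268 genes with enough counts to be tested. Igf2 was the exception.

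The study sorted mammary cells of pubertal glands by Gpr125, an adhesion G protein-coupled receptor encoded by Adgra3, to ask what sets Gpr125+ cells of the growing tips and of the older ducts apart. All 6 samples came from Adgra3-lz/+ mice on an FVB/N background, aged 6 weeks by the sample records, in which a lacZ cassette replaces part of 1 Adgra3 copy, so the Gpr125- samples carried the reporter allele as well. Both abdominal glands of 5 mice were pooled for each sample, cells bearing CD31, CD45 or Ter119 were removed, and the rest were sorted on high CD49f and on cleavage of the β-galactosidase substrate FDG. There were 2 libraries each of FDG+ cells from the distal part of the gland with the terminal end buds (TEB-distal Gpr125+), of FDG+ cells from the part next to the nipple (nipple-proximal Gpr125+), and of FDG- cells (Gpr125-). The sample records give no gland region for the Gpr125- libraries, and both comparisons with Gpr125- cells use the same 2 libraries. Nothing states whether the 2 samples of a group were collected on separate days, so p-values measure the spread between these samples only.

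Genomic imprinting marks a gene in the egg or the sperm by DNA methylation, and the mark then decides which parental copy is used. Paternally expressed members such as Igf2, Dlk1, Peg3, Plagl1 and Mest are known mostly as promoters of fetal growth, although Plagl1 can also halt the cell cycle, and maternally expressed members such as H19, Igf2r, Cdkn1c, Grb10 and Meg3 are known mostly for restraining it. Most are high in the embryo and fall after birth, and several have been tied to tissue stem and progenitor cells. The libraries counted total RNA of a gene and did not separate the parental copies, so imprinting itself was not measured.

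Total counts ranged from 20134890 to 37296640 per library, and 3 counts, taken as the smallest level shown, corresponded to 0.0804 to 0.149 CPM (a count divided by its library total, on a common scale). This limit covers counting error only, since the kit used no molecular identifiers. The second Gpr125- library stood apart, with 12775 genes at 10 or more counts against 14836 to 16901 in the other 5. Basal keratins and contractile genes were present in every library, with all 12 basal markers over 3 counts in each group, and the basal sum was 3393 to 3554 CPM in Gpr125-, 4017 to 23031 CPM in TEB-distal and 9449 to 14952 CPM in nipple-proximal libraries. Adgra3 itself was measured at 35.7 and 18.6 CPM in the libraries labelled Gpr125-, 15.0 and 4.83 CPM in TEB-distal and 19.2 and 12.3 CPM in nipple-proximal libraries. Its transcript was not higher in the libraries labelled Gpr125+, and in both TEB-distal libraries it was below both labelled Gpr125- (edgeR adjusted p = 0.982). Group names below are those of the labels.

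Peg3 and Plagl1, a pair of paternally expressed zinc finger genes, had the clearest pattern among the members: all 4 Gpr125+ libraries were above both Gpr125- libraries. This was so for 7.66% of all genes tested, and the opposite order was found in 5%, with no member. Peg3 encodes a large zinc finger DNA-binding protein that acts as a repressor and has been linked to p53 and NF-κB signalling. Plagl1, also called Zac1, encodes a zinc finger transcription factor that can arrest the cell cycle and that regulates other imprinted genes.

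The 250 bases before the RefSeq start site of each of the pair are shown, since their levels are the ones that separate the libraries. Peg3 lies at chr7:6703892-6730431 on the minus strand of mm10, and the stretch printed is chr7:6730420-6730669, at the 5′ end of the gene. Plagl1 lies at chr10:13060504-13131694 on the plus strand, and the stretch printed is chr10:13090582-13090831, inside the gene's span, upstream of a start site within it. Both are from RefSeq on GRCm38.p6, read 5′ to 3′ on the gene's strand, and the capitals mark CG dinucleotides, the dinucleotide at which DNA is methylated.
Peg3: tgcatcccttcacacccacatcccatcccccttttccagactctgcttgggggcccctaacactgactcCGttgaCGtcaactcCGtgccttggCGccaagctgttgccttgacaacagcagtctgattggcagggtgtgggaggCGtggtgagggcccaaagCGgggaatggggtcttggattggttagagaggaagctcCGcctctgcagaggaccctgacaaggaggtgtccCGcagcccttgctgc
Plagl1: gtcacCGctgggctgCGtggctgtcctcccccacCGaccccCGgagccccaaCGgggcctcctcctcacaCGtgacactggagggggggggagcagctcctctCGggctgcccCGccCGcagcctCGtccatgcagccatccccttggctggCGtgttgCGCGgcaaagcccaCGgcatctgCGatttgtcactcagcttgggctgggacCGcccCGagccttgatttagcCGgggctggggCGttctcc

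Over windows of 300 bases that also hold the first 50 transcribed bases, the ratio of observed to expected CG was 0.46 for Peg3 and 0.70 for Plagl1, both above the median of 0.384 over 32841 RefSeq windows. The Peg3 window held 13 CG dinucleotides and that of Plagl1 held 26, against a median of 7. The letters GGGGCCCC, a palindrome known as a binding motif of Plagl1, occurred in 1 of the 15 windows of members, that of Peg3, where they begin 201 bases before the start, and in 1.08% of all windows. The letters GCCATNTT, a form of the YY1 motif, were in none of the 15 on either strand and in 6.05% of all windows. A match of letters describes the window and is not a measured binding site.

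The Gpr125- libraries held Peg3 at 1.42 and 0.034 CPM, the TEB-distal ones at 68.6 and 9.97 CPM, and the nipple-proximal ones at 12.5 and 5.32 CPM (values scaled by TMM, edgeR's correction for composition). The lowest Gpr125+ library was thus above the highest Gpr125- library, and the first TEB-distal library was the highest of all 6. The group means were 0.727 ± 0.980, 39.3 ± 41.4 and 8.90 ± 5.06 CPM (SD, n = 2 each). On the log2 scale Peg3 was higher by 5.73 ± 1.80 (SE) in TEB-distal than in Gpr125- cells, a 53.1-fold difference, and by 3.59 ± 1.63, or 12.03-fold, in nipple-proximal cells. Neither difference passed the correction over all genes in edgeR's quasi-likelihood test (adjusted p = 0.803 and 1). In DESeq2, run on the 4 libraries compared, the adjusted p was 0.0264 for the TEB-distal and 0.421 for the nipple-proximal difference.

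The size of the Peg3 difference hung on which Gpr125- library served as the reference. With the sparse second Gpr125- library left out, the log2 difference was 4.78 (TEB-distal) and 2.65 (nipple-proximal), and with the first left out it was 9.84 and 7.73 against the 1 count of the second, where edgeR's adjusted p for TEB-distal cells became 0.0640. Without the first TEB-distal library the difference of TEB-distal cells was 3.79. TEB-distal and nipple-proximal cells overlapped in Peg3, with a log2 difference of 2.14 ± 1.53 (edgeR adjusted p of 1).

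Plagl1 stood at 4.48 and 5.11 CPM in Gpr125- cells, at 40.4 and 8.89 CPM in TEB-distal cells, and at 34.5 and 72.4 CPM in nipple-proximal cells. Both Gpr125- libraries were close together and below each of the others, and the second nipple-proximal library was the highest. The means were 4.79 ± 0.452, 24.6 ± 22.3 and 53.5 ± 26.8 CPM (SD, n = 2 each). Plagl1 was higher by 3.48 ± 0.98 on the log2 scale in nipple-proximal than in Gpr125- cells, or 11.1-fold, which placed it 42nd of 17268 genes by p value (edgeR adjusted p of 1). The difference of TEB-distal cells was 2.36 ± 0.93, or 5.14-fold (edgeR adjusted p = 0.803). In DESeq2 the adjusted p was 0.0420 for the nipple-proximal and 0.547 for the TEB-distal difference. Leaving out either Gpr125- library kept the log2 difference between 3.24 and 3.58 for nipple-proximal cells and between 2.12 and 2.45 for TEB-distal cells, whereas without the first TEB-distal library the latter was 0.88. TEB-distal and nipple-proximal libraries overlapped, with a log2 difference of -1.12 ± 0.90 (edgeR adjusted p of 1).

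Markers of other cells also differed between these libraries. The summed level of 12 endothelial markers was 788 to 1330 CPM in Gpr125-, 19.6 to 23.7 CPM in TEB-distal and 26.0 to 231 CPM in nipple-proximal libraries, with 11, 10 and 12 of the 12 over 3 counts in a library of the group, and with Robo4 and Sox17 at 0 in both TEB-distal libraries. The 10 fibroblast markers summed to 47.5 to 154, 123 to 268 and 62.4 to 82.3 CPM, with 9, 10 and 10 over 3 counts. Of the 9 tested, 5 were above both Gpr125- libraries in TEB-distal libraries and 0 below, against 14% and 10% of all genes. In nipple-proximal libraries 0 were above and 0 below. Both TEB-distal libraries were above both nipple-proximal libraries for 6 and below for 0, against 15.2% and 18.3%. The 8 pericyte markers summed to 10.7 to 56.6, 10.6 to 28.3 and 13.8 to 37.2 CPM, with 6, 3 and 6 over 3 counts. The paper's flow cytometry methods also list an antibody to CD140a, the product of the fibroblast marker Pdgfra, which the series record does not name among the cells removed, and Pdgfra had 123 and 1 counts in Gpr125-, 173 and 121 in TEB-distal and 1 and 17 in nipple-proximal libraries. Among the pericyte markers Kcnj8 was at 0 in both Gpr125- libraries, Abcc9 and Higd1b in both nipple-proximal libraries, and these 3 together with Rgs5 and Cspg4 in both TEB-distal libraries. The 6 adipocyte markers summed to 631 to 672, 8.93 to 17.9 and 2.54 to 24.8 CPM, led by Fabp4, a lipid carrier of endothelium as well as fat, with 1, 2 and 2 over 3 counts. Plin1 and Cidec were at 0 in both Gpr125- libraries, Plin1, Lep and Cidec in both TEB-distal libraries, and Adipoq and Lep in both nipple-proximal libraries. The basal sum was also higher in every Gpr125+ library than in either Gpr125- library. Of the 4 Gpr125+ libraries it was lowest in the first TEB-distal library, at 4017 CPM. Of the 12 basal markers, 7 were above both Gpr125- libraries in both TEB-distal libraries and 1, Trp63, was below, against 14% and 10% of all genes. In nipple-proximal libraries 10 were above and 0 below, against 19.9% and 10.8%. Krt5 overlapped in both comparisons. The part of cell makeup in the Peg3 and Plagl1 differences was not tested, and in these bulk samples fewer cells of a type and less RNA per cell cannot be told apart.

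**Figure D1:**
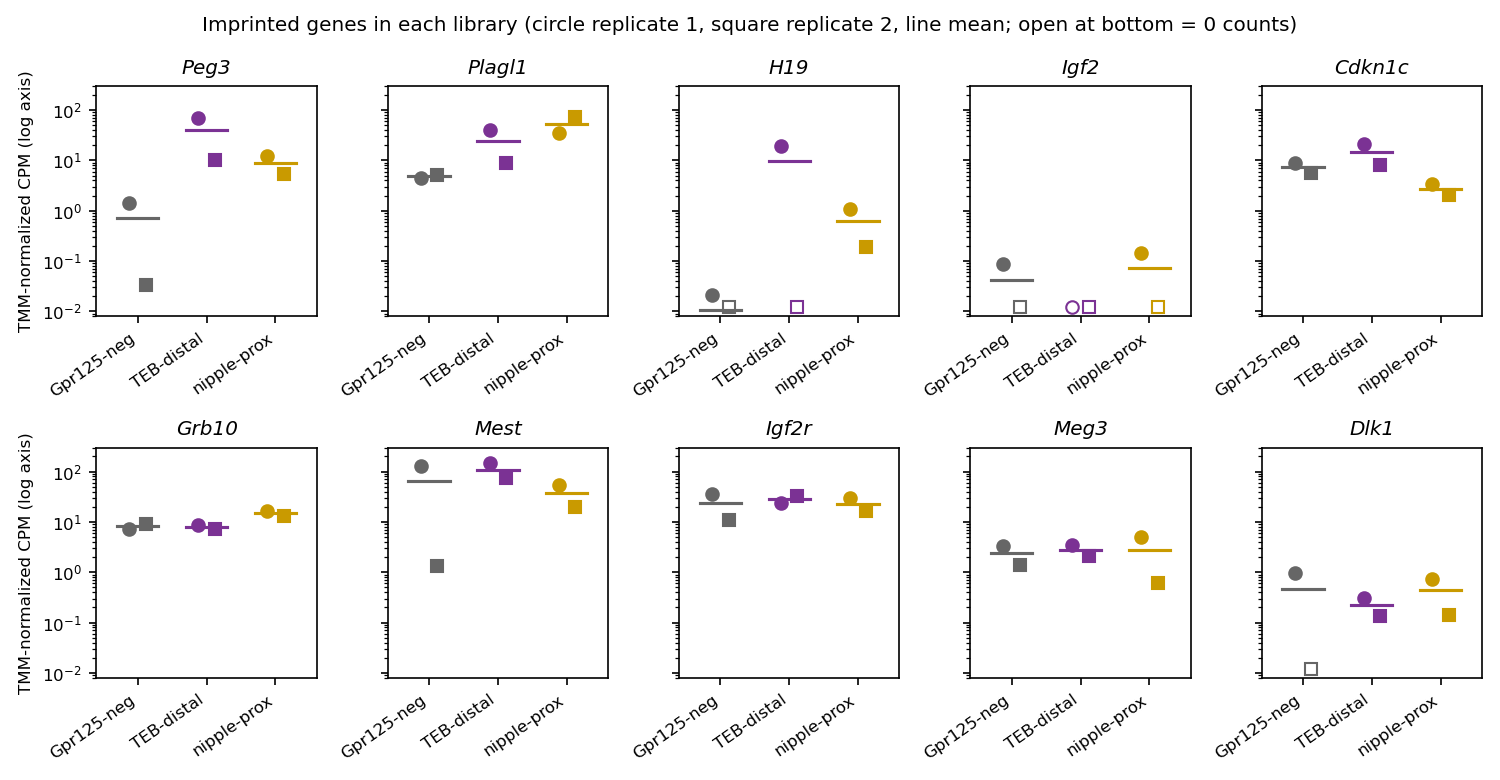
TMM-normalized CPM of the 10 imprinted genes on a log axis, with a circle for replicate 1, a square for replicate 2, a line at the mean of the 2, and open symbols at the bottom for 0 counts. Peg3 and Plagl1 lie above both Gpr125- libraries in all 4 Gpr125+ libraries, and H19 reaches 19.5 CPM in 1 TEB-distal library and 0 in the other.

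Of H19 and Igf2, the best known imprinted pair, Igf2 had at most 4 counts in any library, and H19 was above 22 counts in 1 library alone. Igf2 encodes a fetal insulin-like growth factor, and H19 is a non-coding RNA that restrains growth and is the precursor of miR-675. They sit 72.6 kb apart on chromosome 7, H19 at chr7:142575529-142578143 and Igf2 at chr7:142650766-142666816 on mm10, both on the minus strand, and share enhancers. Igf2 had 4 and 0 counts in Gpr125-, 0 and 0 in TEB-distal and 3 and 0 in nipple-proximal libraries, so that 4 of the 6 libraries held no read. It did not pass the expression filter and was not tested. In GENCODE M21, 64.5% of the exon bases of Igf2 are shared with other genes, 62.8% with Gm49394 on the same strand, and reads falling there could not have been given to Igf2 alone, so its absence is not shown.

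H19 had 501 counts in the first TEB-distal library and 0 in the second. The Gpr125- libraries had 1 and 0 counts and the nipple-proximal libraries 22 and 4. On the CPM scale these were 19.5 and 0 in TEB-distal, 0.022 and 0 in Gpr125-, and 1.08 and 0.188 in nipple-proximal libraries. A count of 0 in the second TEB-distal library allows up to 0.102 CPM at 3 counts. Since neither Gpr125- library exceeded 3 counts, no fold is given against Gpr125- cells. In nipple-proximal cells both libraries were above both Gpr125- libraries (edgeR adjusted p of 1). The TEB-distal comparison gave an adjusted p of 0.803 in edgeR and of 0.0197 in DESeq2, but it rested on the first TEB-distal library, without which the TEB-distal and Gpr125- libraries all held 3 counts or fewer and no difference could be measured. Necdin (Ndn), an imprinted growth suppressor named here after its values were seen, likewise had 491 counts in the first TEB-distal library and 0 in the second.

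Cdkn1c encodes p57, an inhibitor of cyclin-dependent kinases that holds cells out of the cycle, and of the members without overlap it differed most between the pair of Gpr125+ populations. It stood at 20.9 and 8.07 CPM in TEB-distal, 8.93 and 5.62 CPM in Gpr125- and 3.44 and 2.07 CPM in nipple-proximal libraries. Both nipple-proximal libraries were the lowest of the 6, while TEB-distal and Gpr125- libraries overlapped. Means were 14.5 ± 9.07, 7.28 ± 2.34 and 2.75 ± 0.966 CPM in the same order (SD, n = 2 each). TEB-distal exceeded nipple-proximal cells by 2.39 ± 1.17 on the log2 scale, or 5.25-fold, with an adjusted p of 1 in edgeR and of 0.166 in DESeq2. Against Gpr125- cells the log2 difference was 0.99 ± 1.12 for TEB-distal cells and -1.40 ± 1.13 for nipple-proximal cells, with an edgeR adjusted p of 1 for both. The gene lies at chr7:143458339-143461050, and 30.7% of its exon bases are shared with the antisense gene Gm44732. The counting ignored strand, so reads there cannot be told apart. Kcnq1ot1, the paternally expressed antisense RNA of the same cluster, had 2129 to 12089 counts per library, and Cdkn1c made up 0.894% to 6.65% of the reads of both. This share is not scaled to length, and Kcnq1ot1 has 93092 exon bases against 2039 of Cdkn1c. Per kilobase of exon, mean Cdkn1c and Kcnq1ot1 were 3.57 and 2.54 CPM in Gpr125-, 7.10 and 3.25 CPM in TEB-distal and 1.35 and 1.80 CPM in nipple-proximal cells.

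Grb10, an adaptor that dampens insulin and IGF receptor signalling, showed the reverse order of the Gpr125+ populations. It was measured at 7.16 and 9.08 CPM in Gpr125-, 8.62 and 7.35 CPM in TEB-distal, and 16.2 and 13.2 CPM in nipple-proximal libraries. Both nipple-proximal libraries were above the other 4. The log2 difference was 0.86 ± 0.95 from Gpr125- cells and -0.88 ± 0.95 for TEB-distal against nipple-proximal cells, with an edgeR adjusted p of 1 for both. TEB-distal and Gpr125- cells differed by -0.02 ± 0.95 (edgeR adjusted p of 1).

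Mest, whose protein is an α/β hydrolase of the endoplasmic reticulum, had the highest group mean per kilobase of the members in all 3 groups, and its Gpr125- replicates were far apart. It reached 131 CPM in the first and 1.35 CPM in the second Gpr125- library, 145 and 74.4 CPM in the TEB-distal libraries, and 54.6 and 19.6 CPM in the nipple-proximal libraries. The Gpr125- libraries spanned nearly the whole range, while both TEB-distal libraries were above both nipple-proximal libraries. The log2 difference between TEB-distal and nipple-proximal cells was 1.56 ± 1.54 (edgeR adjusted p of 1). Against Gpr125- cells it was 0.72 ± 1.51 (TEB-distal) and -0.84 ± 1.51 (nipple-proximal), and both signs turned with 1 library left out: TEB-distal cells were at -0.27 without the second and 6.19 without the first Gpr125- library, where the edgeR adjusted p was 0.0585, and nipple-proximal cells were at 4.64 without the first. Mest shares 23.1% of its exon bases with Copg2 on the opposite strand. It had between 33.3% and 93.1% of the reads of both genes, the lowest share in the second Gpr125- library, with 40 reads against 80 of Copg2.

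Igf2r, the receptor that clears IGF2 from the cell surface, was detected in every library. It stood at 36.1 and 10.9 CPM in Gpr125-, 23.7 and 32.3 CPM in TEB-distal and 29.8 and 16.6 CPM in nipple-proximal libraries, and all 3 groups overlapped. Its log2 differences were 0.25 ± 0.83, -0.02 ± 0.83 and 0.27 ± 0.83 for TEB-distal and nipple-proximal against Gpr125- and for TEB-distal against nipple-proximal cells (edgeR adjusted p of 1 for each). Airn, the antisense RNA that silences the paternal Igf2r copy, shares no exon base with it, and Igf2r had 86.7% to 97.3% of the reads of both. That share was not scaled to exon length, 9308 bases for Igf2r and 3597 for Airn.

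Meg3 and Dlk1 are neighbours on chromosome 12, with 77.7 kb between chr12:109452823-109463336 (Dlk1) and chr12:109541001-109571726 (Meg3). Dlk1 is a Notch-like membrane protein known from preadipocytes and fetal tissue, and Meg3 is a non-coding RNA with growth-suppressing activity. Dlk1 had 44 and 0 counts in Gpr125-, 8 and 4 in TEB-distal and 15 and 3 in nipple-proximal libraries. It was near the smallest level shown in most libraries, at 0 to 0.947 CPM. Meg3 was measured at 3.33 and 1.42 CPM in Gpr125-, 3.47 and 2.08 CPM in TEB-distal, and 5.01 and 0.612 CPM in nipple-proximal libraries. The groups overlapped for both genes in every comparison, and Meg3 had 77.9% to 100% of the reads of the pair. These shares were not scaled to exon length, 18089 bases for Meg3 and 5657 for Dlk1. For Meg3 the log2 differences were 0.22 ± 1.65, 0.24 ± 1.65 and -0.02 ± 1.65 for TEB-distal and nipple-proximal against Gpr125- and for TEB-distal against nipple-proximal cells, and for Dlk1 they were -1.08 ± 2.34, -0.12 ± 2.31 and -0.96 ± 2.35 (edgeR adjusted p of 1 for all). These errors leave room for several-fold differences either way.

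**Figure D2:**
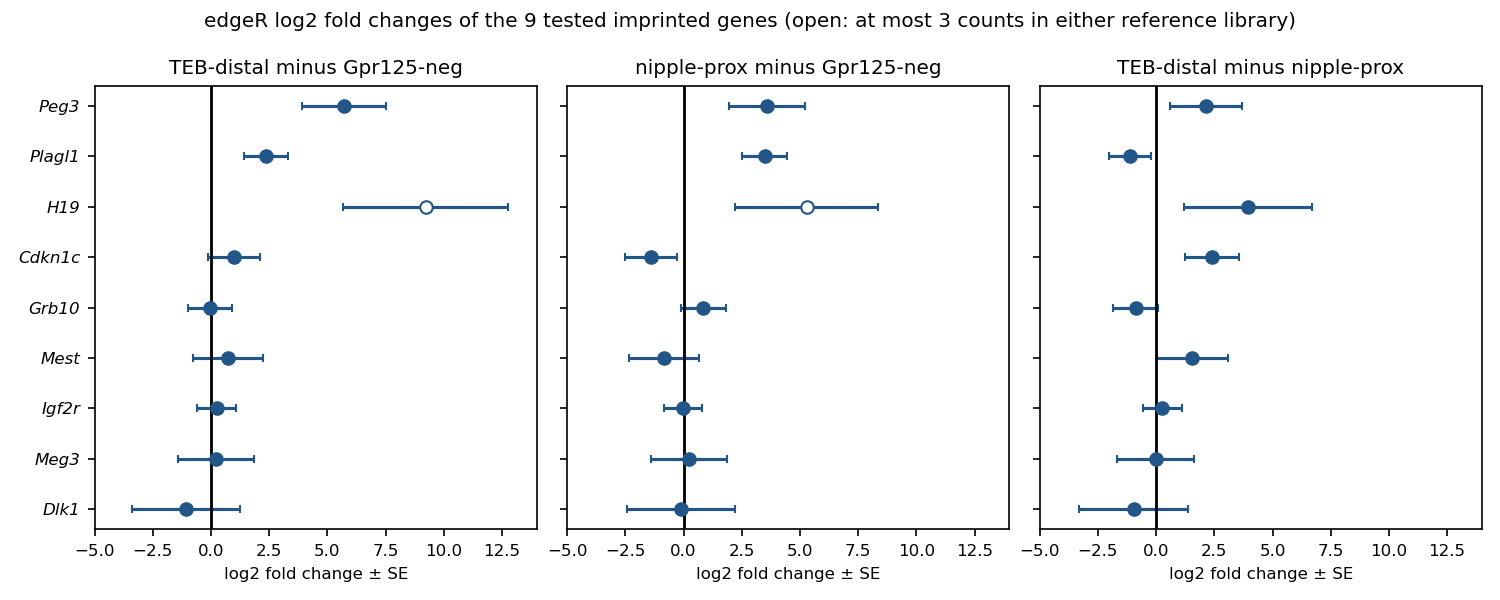
Log2 fold changes of the 9 tested genes from edgeR with bars of 1 SE, in 3 panels for TEB-distal against Gpr125-, nipple-proximal against Gpr125-, and TEB-distal against nipple-proximal cells. Open symbols mark H19 where neither reference library exceeded 3 counts, which gives no usable fold. Peg3 at 5.73 and 3.59 and Plagl1 at 2.36 and 3.48 are right of 0 in both comparisons with Gpr125- cells.

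Counted over the list, no member was called by edgeR (adjusted p below 0.1 with 2-fold or more) in any of the 3 comparisons, and neither was any of the 17268 genes (0% in each). At an unadjusted edgeR p under 0.05 there were 3 of 9 members for TEB-distal against Gpr125- cells (H19, Peg3 and Plagl1) against 6.05% of all genes, 1 of 9 (Plagl1) against 3.55% for nipple-proximal against Gpr125- cells, and 0 of 9 against 2.21% for TEB-distal against nipple-proximal cells. Both TEB-distal libraries were above both Gpr125- libraries for 2 members against 14% of genes, and below for 0 against 10%. Nipple-proximal libraries were above both Gpr125- libraries for 4 members (H19, Peg3, Plagl1 and Grb10) against 19.9%, and below for 1 (Cdkn1c) against 10.8%. TEB-distal libraries were above both nipple-proximal libraries for 2 (Cdkn1c and Mest) against 15.2%, and below for 1 (Grb10) against 18.3%. The median log2 difference of the 9 was 0.72, 0.24 and 0.27 in the 3 comparisons, beside 0.03, -0.0032 and 0.06 over all genes, and it was the same with H19 set at the bound that 3 counts give.
DESeq2, run on each comparison's own libraries, called H19 and Peg3, 2 of the members, for TEB-distal against Gpr125- cells, where it called 4% of the genes with an adjusted p, Plagl1 alone for nipple-proximal against Gpr125- cells (2.02% of genes), and no member for TEB-distal against nipple-proximal cells (2.29% of genes). With 2 libraries against 2, an exact two-sided permutation test of a single gene cannot give a p below 0.333.

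Levels of different genes were compared per kilobase of exon. Mest was first in all 3 groups, at 16.8, 27.8 and 9.41 CPM per kb in Gpr125-, TEB-distal and nipple-proximal cells. In Gpr125- cells it was followed by Cdkn1c at 3.57, Igf2r at 2.53, Grb10 at 0.894 and Plagl1 at 0.613 CPM per kb. Mest ran from 0.343 to 33.2 CPM per kb there and overlapped with each of these. Cdkn1c overlapped with Igf2r, while Igf2r, Grb10 and Plagl1 were apart from the next gene. In TEB-distal cells Cdkn1c at 7.10, H19 at 3.97, Plagl1 at 3.15, Igf2r at 3.01, Peg3 at 2.95 and Grb10 at 0.879 CPM per kb followed. The place of H19 rested on 1 library, with 7.94 CPM per kb in the first TEB-distal library and 0 in the second. Mest was apart from Cdkn1c, and each gene from Cdkn1c to Peg3 overlapped with the next in the order. In nipple-proximal cells Plagl1 was next at 6.84, overlapping with Mest, and then came Igf2r at 2.49, Grb10 at 1.62, Cdkn1c at 1.35, Peg3 at 0.668 and H19 at 0.258 CPM per kb, where Grb10 overlapped with Cdkn1c and Peg3 with H19. Meg3, Dlk1 and Igf2 were at or below 0.155 CPM per kb in every group. The ranks of Plagl1 (5, 4 and 2 in Gpr125-, TEB-distal and nipple-proximal cells) and Cdkn1c (2, 2 and 5) moved in opposite directions between TEB-distal and nipple-proximal cells. Plagl1 itself overlapped between these populations, and its TEB-distal rank was not apart from that of H19 or Igf2r.

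**Figure D3:**
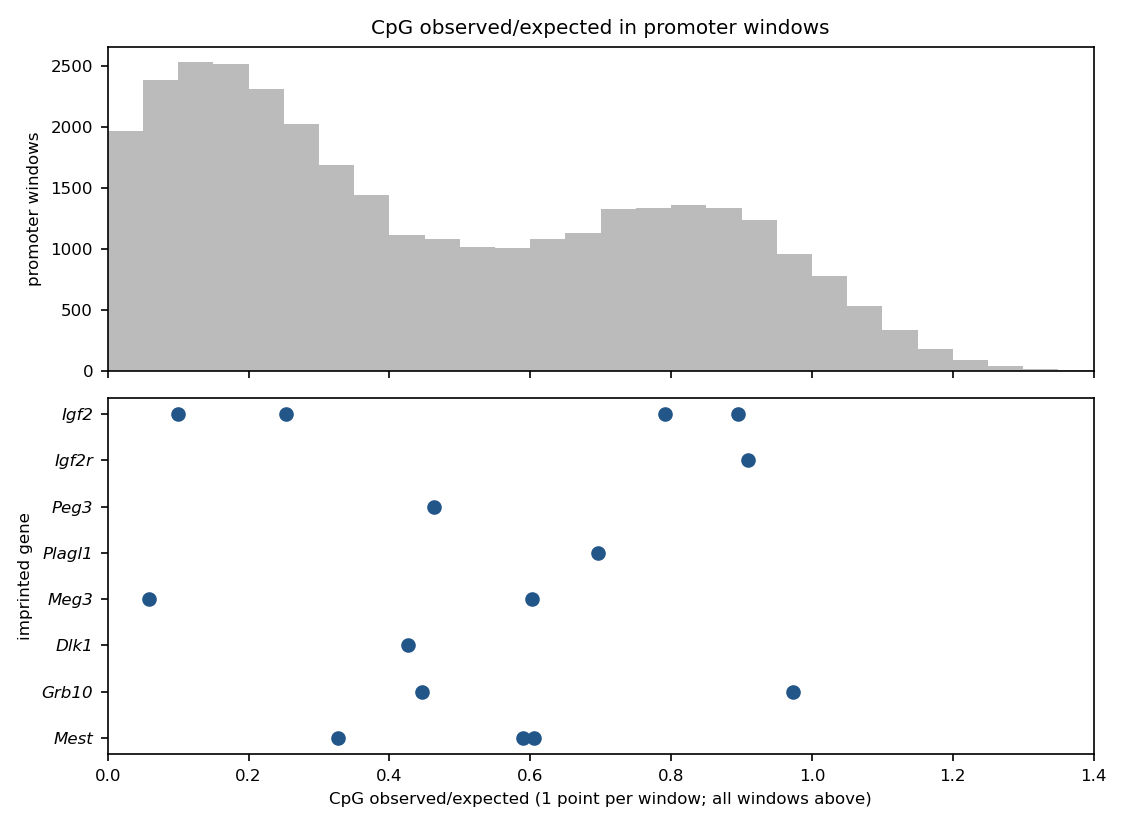
Ratio of observed to expected CG in promoter windows of 300 bases, as a histogram over 32841 RefSeq windows above and as 1 point per window for the 8 imprinted genes that have one below. The 15 windows run from 0.059 for a Meg3 window to 0.97 for a Grb10 window, and 11 are at or above the median of 0.384.

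The members lie on several chromosomes, and some are close neighbours. On chromosome 7, H19 and Igf2 are 72.6 kb apart and Igf2 and Cdkn1c 792 kb apart. On chromosome 12, Dlk1 and Meg3 are 77.7 kb apart. Of the 10, 4 are on chromosome 7 and 2 on chromosome 12, and the others are on chromosomes 6, 10, 11 and 17. Of the 15 RefSeq promoter windows found for 8 members, 11 had a CG ratio at or above the median over all windows. Igf2r at 0.91 and 1 of the Grb10 windows at 0.97 were the richest.

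Across the 6 libraries, which differ in depth and cell makeup and fall into 3 groups, Pearson correlations of log2 CPM between members ran from -0.72 for Cdkn1c with Grb10 to 0.90 for Igf2r with Mest. Peg3 correlated at 0.80 with Mest, 0.75 with H19 and 0.67 with Plagl1, and Meg3 with its neighbour Dlk1 at 0.68. The genes most like each member over the 6 libraries were Gm37484 and C030015A19Rik for Peg3 (r of 0.997 and 0.997), Elf1 and Rsl1 for Plagl1 (0.99 and 0.985), Ano9 and Zfp759 for H19 (0.997 and 0.994), Gipc2 and 2610020C07Rik for Cdkn1c (0.974 and 0.972), and Pde1c and Clec4e for Grb10 (0.983 and 0.979). For Mest they were Slc31a2 and Ankmy1 (0.999 and 0.998), for Igf2r Prdx2-ps1 and Msantd1 (0.997 and 0.996), for Meg3 Gm12989 and Gm6083 (0.959 and 0.957), and for Dlk1 Rnf5 and Arl10 (0.992 and 0.988). Prdx2-ps1 is a pseudogene whose reads may come from its parent. Zfp759, a zinc finger gene, had 771 counts in the first TEB-distal library and 1 in the second, the same imbalance as H19. With 6 points and 17268 genes searched these are descriptions.

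Other imprinted genes were listed by the parental copy they are known to use. Of 20 paternally expressed genes 15 passed the filter and of 17 maternally expressed genes 8 did, and none was called by edgeR in any comparison. At an unadjusted p under 0.05 there were 2 of the 23, Peg10 and Sgce, both in nipple-proximal against Gpr125- cells, where 3.55% of all genes had such a p. There were 0 in TEB-distal against Gpr125- and in TEB-distal against nipple-proximal cells, beside 6.05% and 2.21% of all genes. Peg10 and Sgce are neighbours on chromosome 6, the first derived from a retrotransposon and needed for the placenta, the second encoding ε-sarcoglycan. Peg10 had 59 and 92 counts in Gpr125-, 0 and 3 in TEB-distal and 0 and 0 in nipple-proximal libraries, which makes it at least 15.2-fold lower in nipple-proximal cells against 3 counts per library (edgeR adjusted p of 1). It was below both Gpr125- libraries in all 4 Gpr125+ libraries, the opposite of Peg3 and Plagl1, and for TEB-distal cells edgeR gave an adjusted p of 0.848. Sgce had 13 and 334, 1 and 90, and 1 and 0 counts in Gpr125-, TEB-distal and nipple-proximal libraries (edgeR adjusted p of 1 for nipple-proximal against Gpr125- cells). DESeq2 gave adjusted p-values of 0.0307 for Peg10 and 0.0337 for Sgce there.

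Nap1l5, a histone chaperone-like gene, was at 0.323 and 0 CPM in Gpr125-, 1.64 and 5.58 CPM in TEB-distal and 2.26 and 2.73 CPM in nipple-proximal libraries, and Nnat, a small proteolipid of the endoplasmic reticulum, was at 15.9 and 21.4, 41.5 and 72.6, and 92.3 and 17.0 CPM. All 4 Gpr125+ libraries were above both Gpr125- libraries for Nap1l5, and both TEB-distal libraries were for Nnat, without passing the test (edgeR adjusted p of 0.872 and 0.908 for TEB-distal cells). Zrsr1, a splicing factor gene, was at 24.5 and 55.3, 153 and 31.0, and 47.2 and 21.9 CPM, and the groups overlapped. Among maternally expressed genes Phlda2, which limits placental growth, was at 12.5 and 9.96 CPM in Gpr125-, 16.1 and 52.2 CPM in TEB-distal and 20.7 and 10.6 CPM in nipple-proximal libraries (edgeR adjusted p = 0.907 for TEB-distal cells). Ascl2, a transcription factor of placenta and intestinal stem cells, had 48 and 0 counts in Gpr125- and 39 to 93 in the other libraries. For Ascl2, too, all 4 Gpr125+ libraries were the higher ones on the CPM scale. Rian, a non-coding RNA next to Meg3, had 542 counts in the second Gpr125- library and 7 to 108 in the rest. Ppp1r9a, which encodes neurabin, had 114 and 0 counts in Gpr125-, 21 and 6 in TEB-distal and 0 and 0 in nipple-proximal libraries, and H13, a signal peptide peptidase, was at 72.1 to 432 CPM with no group apart.

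The median log2 difference of the 15 paternally expressed genes tested was 0.49, -0.21 and 0.71 for TEB-distal and nipple-proximal against Gpr125- and for TEB-distal against nipple-proximal cells, and that of the 8 maternally expressed genes was -0.24, 0.25 and -0.04. The same values were found with genes of at most 3 counts in a group set at their bounds. Of the 15, 13 were on the higher side in TEB-distal against nipple-proximal cells, as were 9091 of all 17268 genes. For 2 of the 15 both TEB-distal libraries were above both nipple-proximal ones, against 15.2% of all genes.

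**Figure D4:**
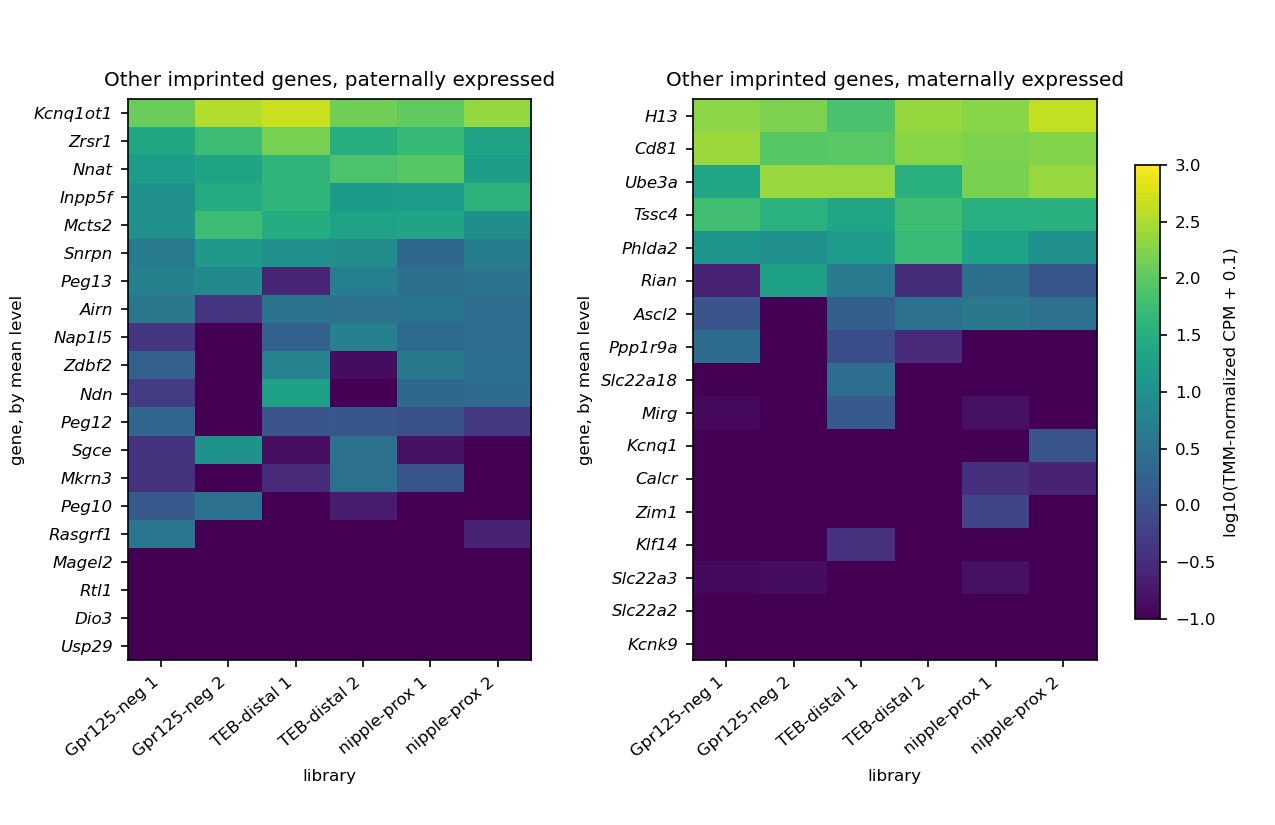
Heat maps of log10 of TMM-normalized CPM plus 0.1 for 20 paternally and 17 maternally expressed other imprinted genes (rows, by mean level) in the 6 libraries (columns). Kcnq1ot1, Zrsr1 and Nnat head the first and H13, Cd81 and Ube3a the second, and Ndn is bright in 1 TEB-distal library and dark in the other.

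Genes that work with the members were listed as well. None of the 7 tested of 8 IGF partners, the 5 tested of 6 other CDK inhibitors and the 7 tested of 8 imprint maintenance factors was called, and none had an unadjusted edgeR p under 0.05. DESeq2 on the 4 compared libraries called none of them either. Among the IGF partners, Irs2, which relays insulin and IGF signals, was at 271 and 194 CPM in Gpr125-, 322 and 700 CPM in TEB-distal and 648 and 512 CPM in nipple-proximal libraries. Every Gpr125+ library was above both Gpr125- libraries, as for 7.66% of all genes (edgeR adjusted p of 0.996 for TEB-distal cells and of 1 for nipple-proximal cells). The insulin receptor Insr was at 65.6 and 39.1, 86.8 and 73.5, and 65.3 and 101 CPM, and the IGF1 receptor Igf1r at 73.0 and 29.8, 42.5 and 62.4, and 83.3 and 75.2 CPM. Irs1, the other main adaptor, stayed at 0.732 to 12.5 CPM.

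Cdkn1b encodes p27, the closest relative of p57. It was at 4.17 and 6.81 CPM in Gpr125-, 29.5 and 14.4 CPM in TEB-distal, and 18.96 and 18.97 CPM in nipple-proximal libraries. All 4 Gpr125+ libraries were above both Gpr125- libraries, by 2.00 ± 0.88 and 1.79 ± 0.87 on the log2 scale (edgeR adjusted p of 0.830 and 1). This order was found in 7.66% of all genes. By staining of terminal end buds, the paper reported p27 protein to be excluded from cells with the Gpr125 reporter. These counts are of RNA, and protein was not measured here. The TEB-distal and nipple-proximal libraries overlapped, with a log2 difference of 0.21 ± 0.85. The INK4 inhibitors Cdkn2b (0.783 to 15.4 CPM), Cdkn2c (1.25 to 9.67 CPM) and Cdkn2d (10.7 to 53.0 CPM) had adjusted p-values of 0.981 or more in edgeR in every comparison.

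Of the 8 listed factors that set or keep imprints, 7 had over 3 counts in every library, and Dppa3 had 0 counts in 4 libraries and 1 and 36 in the TEB-distal ones. Zfp445, a zinc finger protein that binds imprinted regions, ranged from 50.7 to 530 CPM and was highest in the first TEB-distal library. Dnmt3a, a DNA methyltransferase, was at 31.1 to 73.9 CPM, and Ctcf, which insulates Igf2 from the shared enhancers on the maternal copy, was at 35.7 and 25.4 CPM in Gpr125-, 24.4 and 24.1 CPM in TEB-distal and 42.6 and 46.2 CPM in nipple-proximal libraries. Ctcf had 3 groups that did not overlap, with log2 differences of -0.33 ± 0.65, 0.54 ± 0.65 and -0.87 ± 0.65 (edgeR adjusted p of 1 for each). Taken singly, these orders were found in 10%, 19.9% and 18.3% of all genes. Uhrf1, the partner of the maintenance methyltransferase, was at 0.234 to 3.72 CPM.

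**Figure D5:**
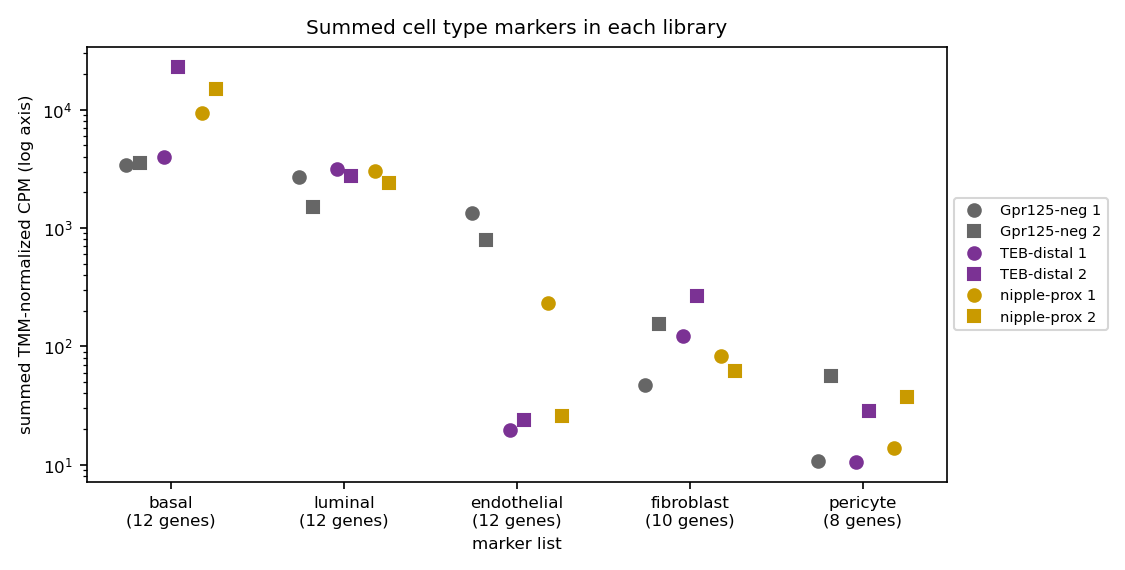
Summed TMM-normalized CPM of 5 marker lists on a log axis, with 1 symbol per library. The endothelial sum is 788 and 1330 CPM in Gpr125- libraries and at most 231 CPM in the others, and the basal sum is lowest in the Gpr125- libraries.

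The remaining marker lists gave the following values in Gpr125-, TEB-distal and nipple-proximal libraries. The 12 luminal markers, led by Krt8, summed to 1504 to 2707, 2756 to 3177 and 2403 to 3016 CPM. The 8 leukocyte markers summed to 74.5 to 79.3, 140 to 302 and 111 to 194 CPM, and the 5 Schwann cell markers to 124 to 229, 28.5 to 48.6 and 69.3 to 103 CPM. The 6 erythroid markers stayed at or below 1.32 CPM. The 10 proliferation genes, led by Pcna, summed to 122 to 352, 164 to 227 and 139 to 141 CPM. Both Gpr125+ groups lay within the range of Gpr125-, and both TEB-distal sums were above both nipple-proximal ones. Singly, 5 of the 10 were above both Gpr125- libraries in TEB-distal libraries and 0 below, against 14% and 10% of all genes. In nipple-proximal libraries 4 were above and 0 below, against 19.9% and 10.8%. Between TEB-distal and nipple-proximal libraries 3 were above and 1 below, against 15.2% and 18.3%. The part of these marker lists in the members' values was not tested.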

How the data were processed

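Gene counts of 6 bulk RNA libraries, 2 per group, were used. The authors aligned reads to mm10 with STAR, counted reads per gene without strand using HTSeq, and deposited the raw count of each gene in each library without normalization. The paper and the submitters' processing notes name different STAR versions, the latter 2.7.3 after CASAVA, and the paper points to an Ensembl mm10 genome sequence, but the release of the gene annotation is not given in the sources used here. Samples were grouped by their titles. The number of pooled mice is that of the series record, and the paper's general methods for sorting give another.

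In edgeR 4.0.16 (R 4.3.3), counts were normalized and tested (TMM, filterByExpr, robust glmQLFit and glmQLFTest) in a single model of 6 libraries. Calls needed a Benjamini-Hochberg adjusted p below 0.1 and 2-fold or more. Standard errors come from the F statistic. DESeq2 1.42.0 was an alternative, as were DESeq2 size factors, 2 other filters, no robust estimation, edgeR on 4 libraries, a replicate block and leaving out each library. Log2 CPM used a prior count of 2. Scripts were tested on simulated counts. Gene positions are from GENCODE M21 (GRCm38) and promoters from RefSeq.

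The members and all gene lists were chosen with earlier results of these data known. Text names every member, the genes of each list called or with the smallest p (3 for imprinted lists, 2 for the others), and the 2 genes most like each member. Genes that share a locus with a member and marker genes are also named. The single-cell and tumour data of the study were not analysed here.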

Additional observations from a re-analysis of the deposited data

How the results depend on the processing

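The count of calls depended on the tool and the filter. Where edgeR called 0 genes, it called 137, 58 and 39 for TEB-distal against Gpr125-, nipple-proximal against Gpr125- and TEB-distal against nipple-proximal cells once genes with at least 1 count were kept. DESeq2 on all 6 libraries called 943, 321 and 129, and on the 4 compared libraries 667, 317 and 360. Among the imprinted members these were 2 (H19 and Peg3) for TEB-distal against Gpr125- cells in each of the 3 settings, and 1 (Plagl1) for nipple-proximal against Gpr125- cells in both DESeq2 settings, where 2 other imprinted genes (Peg10 and Sgce) were called. The cause was not tested. Over the fits that left out 1 library, the calls ranged from 0 to 747, 0 to 335 and 0 to 12 genes, the first 2 maxima without the first Gpr125- library and the third without the second nipple-proximal library, and from 0 to 2 members (Mest and Peg3) in TEB-distal against Gpr125- cells, again without the first Gpr125- library. A group left with 1 library was assumed to vary like the others.

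Replicate numbers gave no pairing: deviations of same-numbered libraries correlated at -0.035, 0.194 and -0.0049 in the 3 comparisons. With the replicate block edgeR called 0 genes, and 6 log2 differences changed sign: Dlk1 was 0.36 for TEB-distal against Gpr125- cells, Igf2r 0.074, Meg3 -0.16, Dlk1 0.80 and Mest 0.30 for nipple-proximal against Gpr125- cells, and Meg3 0.51 for TEB-distal against nipple-proximal cells. The last was also 0.10 with DESeq2 size factors, 0.031 with a filter at 1 CPM, 0.095 and 0.016 with DESeq2 on 6 and on 4 libraries. The cause was not tested.

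Leaving out 1 library turned the sign in these ranges. For TEB-distal against Gpr125- cells they were Igf2r -0.37 to 1.23, Meg3 -0.27 to 0.82, Dlk1 -2.07 to at least 1.14, Grb10 -0.32 to 0.15 and Mest -0.27 to 6.19. For nipple-proximal against Gpr125- cells they were Igf2r -0.63 to 0.95, Meg3 -1.95 to 1.09, Dlk1 -1.73 to at least 2.11 and Mest -1.81 to 4.64. For TEB-distal against nipple-proximal cells they were H19 -2.63 (a bound, lower still being possible) to 5.67, Igf2r -0.11 to 0.75, Meg3 -0.87 to 2.17 and Dlk1 -1.72 to 0.64. Where a group was left with 0 counts the value is a bound at 3 counts per library, and no value was had for H19 in TEB-distal against Gpr125- cells without the first TEB-distal library. Dlk1 without the first nipple-proximal library rests on 3 counts there. Peg3, Plagl1 and Cdkn1c kept their sign in all 3 comparisons under every alternative run. Adjusted p-values over the alternatives ranged from 0.0068 to 1 for Peg3 and 0.0121 to 1 for H19 in TEB-distal cells, and from 0.0420 to 1 for Plagl1 in nipple-proximal cells, each against Gpr125- cells. Igf2 did not pass the expression filter of edgeR and got no adjusted p from DESeq2 on the 4 compared libraries.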
